A study of Homo sapiens with 18 samples.

Results

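The small leucine-rich proteoglycans (SLRPs) examined here were 9 genes of the extracellular matrix: DCN (decorin), BGN (biglycan), ASPN (asporin), FMOD (fibromodulin), LUM (lumican), PRELP, OMD (osteomodulin), OGN (osteoglycin) and PODN (podocan). They were chosen by name, with earlier results of these data known, so shares of members set beside shares of all genes are a description. Each was read from the probe set that the array annotation gives to that gene alone. All 9 had exactly 1 such probe set, and they stand among 18417 genes measured in the same way. The samples were 18 arrays of total RNA from a pair of human mammary epithelial lines that the labels call normal breast epithelial cells. MCF10A arose by spontaneous immortalisation, and HMLE (tagged HMLEC in the cell line field) was made immortal by viral T antigens together with telomerase. Each line carried an empty vector, a Snail construct (gene SNAI1) or a Twist construct (gene TWIST1), both transcription factors of epithelial-mesenchymal transition. The 6 groups held 3 arrays each. All cells were stable clones kept in DMEM/F12 medium with fetal bovine serum and harvested while growing, per the labels. The labels do not say whether a group is 1 clone or several, nor whether its replicates were separate cultures. The p-values therefore rest on the spread among these arrays, and part or all of that spread may be technical.

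SLRPs are secreted proteins whose horseshoe-shaped leucine-rich core binds collagen. They regulate how collagen fibrils assemble and how thick they grow. Decorin and biglycan carry chondroitin or dermatan sulfate chains, whereas lumican, fibromodulin, osteomodulin and osteoglycin can carry keratan sulfate chains. Decorin also binds transforming growth factor beta and several receptor tyrosine kinases, and free biglycan is a ligand of toll-like receptors. In breast tissue these proteins are chiefly products of stromal fibroblasts, and epithelial cells normally make little of them.

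Promoters are shown for BGN and ASPN, which rose with both factors in HMLE, and for PRELP, which rose with Twist there. Snail and Twist are DNA-binding proteins known to bind E-boxes, written CANNTG, and Snail prefers the form CAGGTG, which reads CACCTG on the other strand and is counted within CANNTG as well. Promoters came from a RefSeq promoter table on build GRCh38.p14, in which 6 of the 9 members were matched. Promoters of DCN, LUM and OMD were not analysed here. Each line below gives the 250 bases before the annotated start, 5′ to 3′ on the strand of the gene, with any CANNTG in capitals. The BGN window lies at chrX:153494730-153494979 on the plus strand, the ASPN window at chr9:92482507-92482756 on the minus strand, and the PRELP window at chr1:203475556-203475805 on the plus strand.
BGN: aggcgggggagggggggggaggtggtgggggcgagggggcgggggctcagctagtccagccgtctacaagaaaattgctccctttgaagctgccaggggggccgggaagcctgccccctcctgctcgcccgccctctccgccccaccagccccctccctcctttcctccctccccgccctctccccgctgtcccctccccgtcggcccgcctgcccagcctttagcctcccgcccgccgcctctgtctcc
ASPN: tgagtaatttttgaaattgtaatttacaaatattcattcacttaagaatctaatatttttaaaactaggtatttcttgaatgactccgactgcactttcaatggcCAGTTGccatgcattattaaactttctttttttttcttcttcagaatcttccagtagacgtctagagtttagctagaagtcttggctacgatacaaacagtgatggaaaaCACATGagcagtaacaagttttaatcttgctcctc
PRELP: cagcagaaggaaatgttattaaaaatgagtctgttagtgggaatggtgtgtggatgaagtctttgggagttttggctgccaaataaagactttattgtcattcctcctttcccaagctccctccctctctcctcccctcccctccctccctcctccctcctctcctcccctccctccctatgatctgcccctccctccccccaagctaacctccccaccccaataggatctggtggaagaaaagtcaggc
The BGN and PRELP windows held no CANNTG on either strand, and the ASPN window held CAGTTG at 145 and CACATG at 35 bases before the start. The share of G or C was 74.0% in the BGN window, 52.8% in the PRELP window and 32.4% in the ASPN window. Of 7 windows for the 6 matched members, 4 held a CANNTG, and none of the 7 held CAGGTG or CACCTG. Among all 35116 promoters of the same length, 61.8% held CANNTG and 17.5% held CAGGTG or CACCTG. These matches describe the letters in the windows only.

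Values are log2 expression made by the authors with RMA, so a difference of 1 is a 2-fold change. Array medians lay between 7.698 and 7.793, and replicates correlated at 0.990 to 0.997 across probe sets. The number of arrays limits the precision. As a guide to the dim end of the scale, 361 olfactory receptor genes had a median group mean of 5.64 and a 95th percentile of 7.07. SNAI1 followed the labels, at 7.39 with vector and 12.53 with Snail in HMLE, and at 8.32 and 12.49 in MCF10A. TWIST1 went from 9.69 to 11.49 in HMLE, and from 10.07 in MCF10A vector to 10.99 in the arrays labelled MCF10A Twist. TWIST1 was higher with Snail too, at 10.81 in HMLE (limma adjusted p = 3.33e-10) and 10.30 in MCF10A (adjusted p = 0.0177). The 3 arrays labelled MCF10A Twist go against their line label. MTAP, a gene of the 9p21 region that MCF10A is known to lack, had a mean of 5.98 with vector and of 6.02 with Snail in MCF10A. Its mean was 10.80 in the arrays labelled MCF10A Twist and between 9.83 and 10.26 in the HMLE groups. CDKN2A and CDKN2B, of the same region, stood above 7.07 in MCF10A, at 8.26 and 7.90 with vector and 8.18 and 7.76 with Snail. In the arrays labelled MCF10A Twist their means were 10.67 and 10.45. In the HMLE groups they ranged from 9.93 to 10.42 and from 9.80 to 10.33. The 3 arrays are therefore called "labelled MCF10A Twist" and set against both vector groups. Comparisons that do not involve them were also fitted without them, which left each count of members called the same.

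Across the 6 groups the members fell into those that moved widely and those that hardly moved. Group means spanned 5.71 for LUM, 5.38 for DCN, 5.03 for BGN, 2.05 for OMD, 1.38 for ASPN and 0.95 for PRELP. PODN, OGN and FMOD spanned 0.24, 0.23 and 0.21. The median span was 1.38 over the members and 0.49 over all genes, and 4 of the 9 members spanned at least 2, against 7.32% of all genes. Group means of ASPN, FMOD, OMD and OGN never passed the olfactory receptor 95th percentile, so their levels stayed in the range of those receptor genes. DCN in HMLE vector was under that percentile as well, and so was LUM in both vector groups and both Snail groups. No detection calls were used, and RMA compresses differences there. Where 1 of the groups compared is that dim, a fold is given as "at least", counted from the mean of the brighter group to the olfactory receptor 95th percentile, beside the measured log2 difference. In bulk RNA, fewer cells that make a transcript and less of it per cell cannot be told apart.

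**Figure D1:**
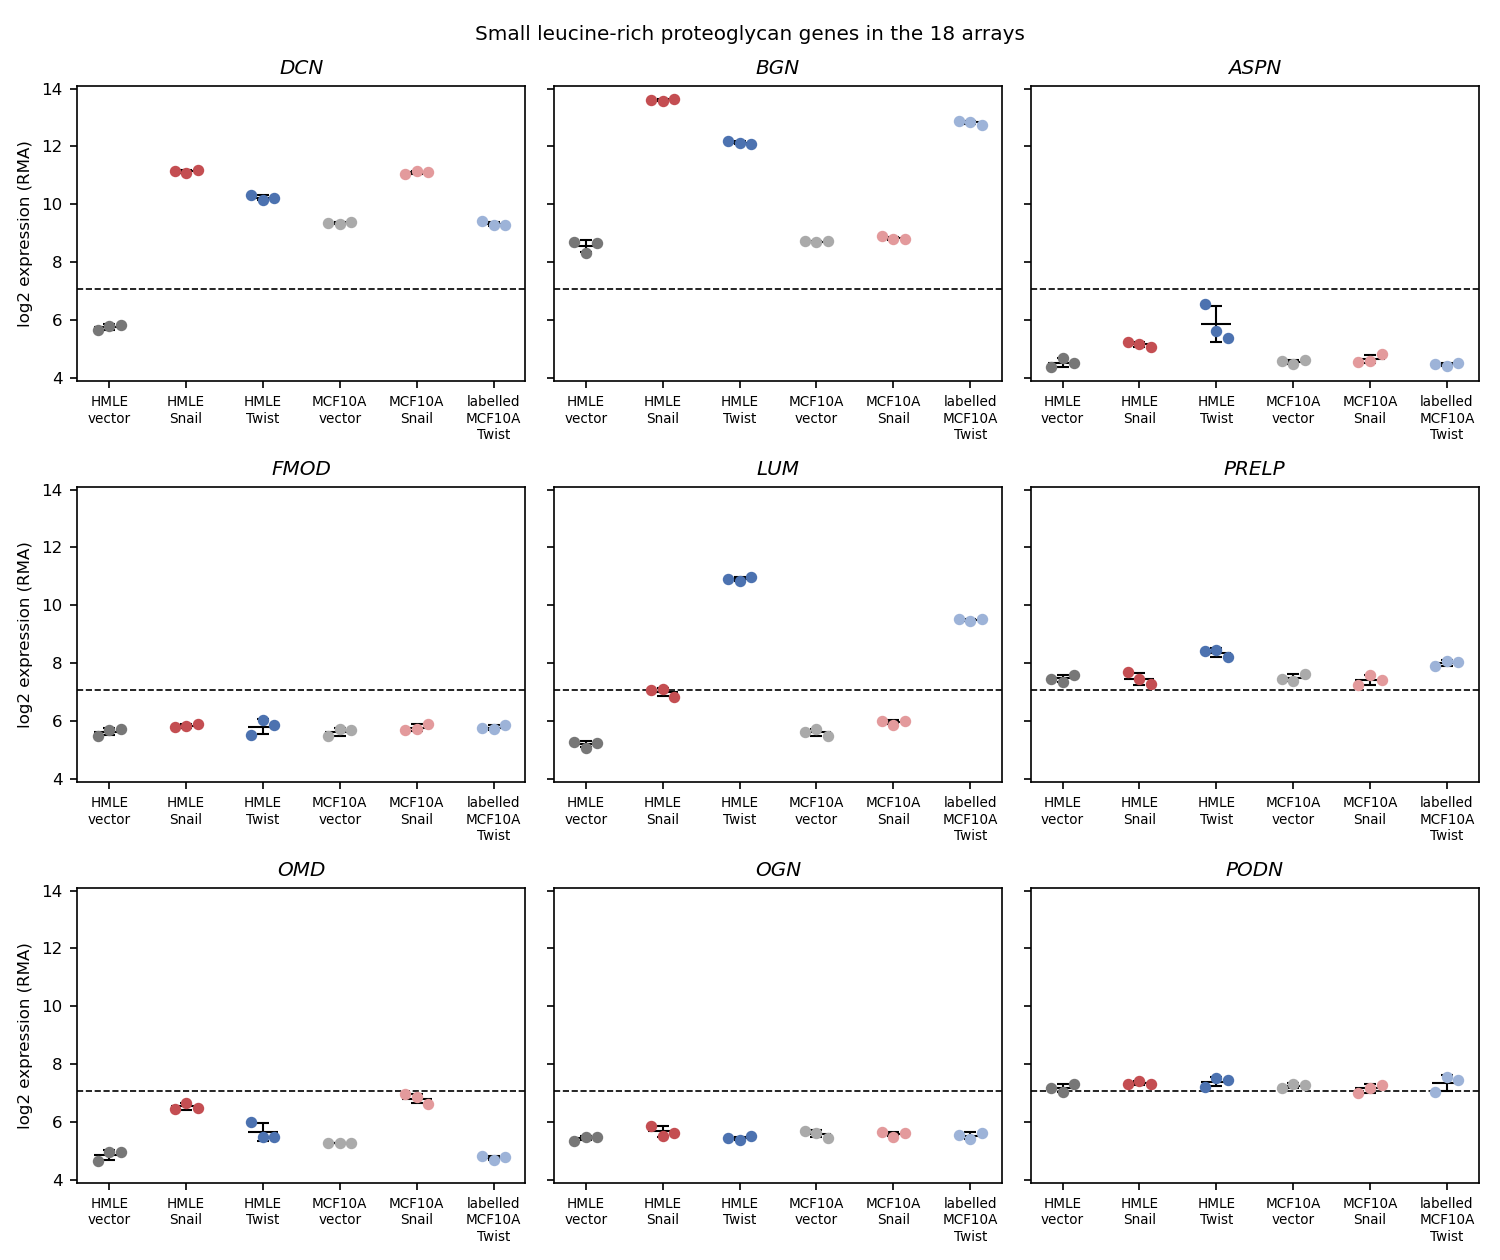
Log2 expression of the 9 genes in each array, with group means as bars and SD as whiskers (n = 3). The dashed line is the olfactory receptor 95th percentile of 7.07. DCN is low in HMLE vector alone, BGN is high in HMLE Snail, HMLE Twist and labelled MCF10A Twist, and LUM is highest in both groups labelled Twist, while FMOD, OGN and PODN stay level.

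DCN, read from probe set 7965410 on chromosome 12, binds collagen I and growth factors. In HMLE its values were 5.65, 5.81 and 5.82 with vector, 11.15, 11.08 and 11.20 with Snail, and 10.33, 10.14 and 10.22 with Twist. In MCF10A they were 9.36, 9.34 and 9.38 with vector, 11.06, 11.15 and 11.11 with Snail, and 9.42, 9.28 and 9.30 in the arrays labelled Twist. HMLE vector was the sole group near the dim end, the Snail groups of both lines overlapped each other at the top, and the labelled MCF10A Twist and MCF10A vector arrays overlapped as well.

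BGN, probe set 8170648 on the X chromosome, is the closest relative of decorin and lies in matrix around cells. Its values were 8.69, 8.34 and 8.68 in HMLE vector, 13.59, 13.58 and 13.63 in HMLE Snail, and 12.18, 12.11 and 12.09 in HMLE Twist. They were 8.72, 8.70 and 8.72 in MCF10A vector, 8.90, 8.79 and 8.80 in MCF10A Snail, and 12.89, 12.84 and 12.76 in labelled MCF10A Twist. The 3 groups at the bottom together ranged from 8.34 to 8.90, and the 3 at the top overlapped neither with them nor with one another.

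LUM, probe set 7965403, encodes a keratan sulfate proteoglycan known from the cornea and skin, and neighbours DCN on chromosome 12. Its values were 5.29, 5.09 and 5.24 in HMLE vector, 7.07, 7.10 and 6.84 in HMLE Snail, and 10.92, 10.84 and 10.98 in HMLE Twist. They were 5.61, 5.72 and 5.50 in MCF10A vector, 6.02, 5.89 and 5.99 in MCF10A Snail, and 9.53, 9.46 and 9.52 in labelled MCF10A Twist. No 2 of the 6 groups overlapped, and the order of their means was HMLE Twist, labelled MCF10A Twist, HMLE Snail, MCF10A Snail, MCF10A vector and HMLE vector.

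OMD, probe set 8162388 on chromosome 9, binds bone mineral. Its values were 4.67, 4.98 and 4.97 in HMLE vector, 6.47, 6.67 and 6.51 in HMLE Snail, and 6.01, 5.48 and 5.48 in HMLE Twist. They were 5.28, 5.29 and 5.27 in MCF10A vector, 6.96, 6.86 and 6.64 in MCF10A Snail, and 4.84, 4.68 and 4.79 in labelled MCF10A Twist. The Snail groups of both lines were the highest and overlapped each other, and HMLE vector overlapped with labelled MCF10A Twist at the bottom.

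ASPN, probe set 8162394 beside OMD, encodes an SLRP with a run of aspartate residues that binds collagen. It stood at 4.38, 4.69 and 4.52 in HMLE vector, 5.26, 5.16 and 5.08 in HMLE Snail, and 6.57, 5.64 and 5.37 in HMLE Twist, where replicate 1 lay apart. Its arrays of the MCF10A-labelled groups ranged from 4.43 to 4.82. PRELP, probe set 7908924 on chromosome 1, anchors basement membranes to the tissue beneath. It stood at 8.44, 8.47 and 8.20 in HMLE Twist and 7.90, 8.09 and 8.05 in labelled MCF10A Twist, and its other 12 arrays ranged from 7.25 to 7.69. FMOD, OGN and PODN, which bind or regulate collagen fibrils, had group means from 5.63 to 5.84, from 5.45 to 5.68 and from 7.17 to 7.41, with group SDs of 0.05 to 0.27.

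In HMLE, Snail raised 6 of the 9 members, DCN, BGN, LUM, OMD, ASPN and OGN, and none fell. A rise at adjusted p under 0.05 was found for 22.9% of all genes and a fall for 24.8%, and 4 of the 9 also passed 2-fold, against 4.46%. DCN went from 5.76 ± 0.10 to 11.14 ± 0.06 (SD, n = 3), a measured rise of 5.38 ± 0.06 (SE), at least 16.9-fold (limma adjusted p = 5.08e-19). BGN went from 8.57 ± 0.20 to 13.60 ± 0.02, which is 5.03 ± 0.08 or 32.7-fold (adjusted p = 8.6e-18). Every Snail array lay above every vector array in both genes. LUM, whose means were under the olfactory receptor percentile in both groups, rose by 1.79 ± 0.08 (adjusted p = 4.03e-12) and OMD by 1.68 ± 0.13 (adjusted p = 5.69e-09). ASPN rose by 0.64 ± 0.20 (adjusted p = 0.0131) and OGN by 0.23 ± 0.09 (adjusted p = 0.0412). The last pair was the least firm. ASPN lost its call without HMLE vector replicate 1 (adjusted p = 0.0542). OGN lost it without any 1 of the HMLE vector arrays, HMLE Snail replicates 1 and 3 or MCF10A Snail replicate 3, with adjusted p from 0.0504 to 0.251, and its difference was 0.13 without HMLE Snail replicate 1. FMOD differed by 0.20 ± 0.11 (adjusted p = 0.156) and PODN by 0.17 ± 0.12 (adjusted p = 0.282). FMOD passed with array weights (adjusted p = 0.0163) and when only the groups compared were fitted (adjusted p = 0.0499). For PRELP the 95% interval of the difference ran from -0.24 to 0.24 (adjusted p = 0.996). The median difference was 0.64 over the members and -0.01 over all genes.

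Twist in HMLE also raised 6 members, LUM, DCN, BGN, ASPN, PRELP and OMD, against 23.0% of all genes, and 4 of them by at least 2-fold, against 3.61%. None fell, where 20.7% of all genes did. LUM went from 5.21 ± 0.10 to 10.91 ± 0.07, a measured rise of 5.71 ± 0.08, at least 14.4-fold (adjusted p = 1.96e-18). DCN rose by 4.47 ± 0.06, at least 8.97-fold (adjusted p = 2.59e-18), and BGN by 3.56 ± 0.08 or 11.8-fold (adjusted p = 3.99e-16). In these 3 genes every Twist array lay above every vector array. ASPN rose by 1.33 ± 0.20 (adjusted p = 2.67e-05), and by 0.98 without HMLE Twist replicate 1 (adjusted p = 7.80e-07). PRELP rose by 0.89 ± 0.11 (adjusted p = 3.84e-06) and OMD by 0.78 ± 0.13 (adjusted p = 5.92e-05). FMOD (0.18 ± 0.11, adjusted p = 0.217) and PODN (0.22 ± 0.12, adjusted p = 0.151) did not pass, and for OGN the difference was -0.00 ± 0.09 (adjusted p = 0.986). Without HMLE Twist replicate 1, FMOD (adjusted p = 0.0117) and PODN (adjusted p = 0.0497) passed too, and so they did with array weights (adjusted p = 0.00104 and 0.000849). The median difference was 0.89 over the members and 0.02 over all genes. This comparison and the one above share the HMLE vector arrays.

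In MCF10A, Snail raised 3 members, DCN, OMD and LUM, where 10.7% of all genes rose, and 2 of them by at least 2-fold, where 0.717% of genes did. None fell, where 12.0% of all genes did. DCN went from 9.36 ± 0.02 to 11.11 ± 0.05, a rise of 1.75 ± 0.06 or 3.36-fold (adjusted p = 4.95e-12). OMD rose by 1.54 ± 0.13 (adjusted p = 1.08e-07) and LUM by 0.36 ± 0.08 (adjusted p = 0.00279). The means of OMD and LUM were under the olfactory receptor percentile with vector and with Snail. BGN, so strongly raised in HMLE, stood at 8.72 ± 0.01 and 8.83 ± 0.06, and the 95% interval of its difference ran from -0.05 to 0.27 (adjusted p = 0.352). The other 5 members differed by -0.10 to 0.15, with adjusted p from 0.417 to 0.973. The median difference was 0.11 over the members and -0.02 over all genes.

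The arrays labelled MCF10A Twist differed from MCF10A vector in 4 members. BGN, LUM and PRELP rose, where 26.5% of all genes did, and OMD fell, where 23.9% did. BGN went from 8.72 ± 0.01 to 12.83 ± 0.06, a rise of 4.11 ± 0.08 or 17.3-fold (adjusted p = 7.16e-17). LUM went from 5.61 ± 0.11 to 9.50 ± 0.04, a measured rise of 3.89 ± 0.08, at least 5.41-fold (adjusted p = 1.56e-16). PRELP rose by 0.51 ± 0.11 (adjusted p = 0.000904) and OMD fell by 0.51 on the log2 scale, with an SE of 0.13 (adjusted p = 0.00228). DCN stood at 9.34 ± 0.07 against 9.36 ± 0.02, with a 95% interval from -0.16 to 0.11 (adjusted p = 0.786). ASPN, FMOD, OGN and PODN differed by -0.08 to 0.15, with adjusted p from 0.295 to 0.785, and of these FMOD passed with array weights (adjusted p = 0.0406).

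Set against HMLE vector instead, the same 3 arrays were higher in LUM, BGN, DCN and PRELP, where 25.2% of all genes were higher, and none was lower, where 24.0% were. LUM was higher by 4.30 ± 0.08 (adjusted p = 4.92e-17), BGN by 4.26 ± 0.08 (adjusted p = 3.91e-17) and PRELP by 0.54 ± 0.11 (adjusted p = 0.000602). DCN was higher by 3.57 ± 0.06, at least 4.82-fold (adjusted p = 3.54e-17), and OMD differed by -0.10 ± 0.13 (adjusted p = 0.546). The other 4 members differed by -0.05 to 0.17, with adjusted p from 0.254 to 0.864, and of these PODN passed without labelled MCF10A Twist replicate 1 (0.32, adjusted p = 0.0193). With array weights, FMOD (adjusted p = 0.0106) and PODN (adjusted p = 0.0139) passed. BGN, LUM and PRELP thus passed against either vector group, whereas the results for DCN and OMD depended on which vector group was used.

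**Figure D2:**
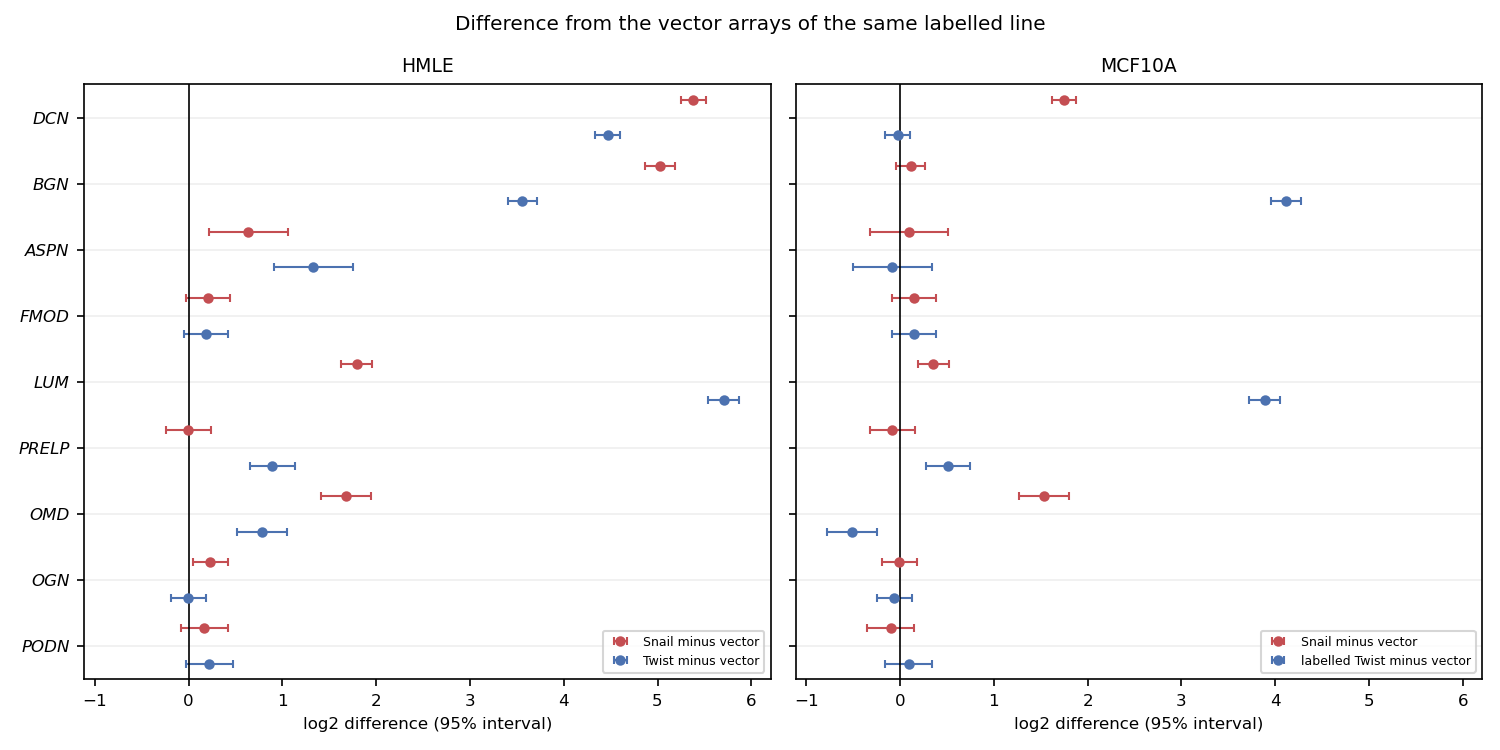
Log2 difference of each gene from the vector arrays of the same labelled line, with 95% intervals from limma, for Snail (red) and Twist (blue) in HMLE (left) and MCF10A (right). DCN with Snail is at 5.38 in HMLE and 1.75 in MCF10A, BGN with Snail at 5.03 and 0.11, and LUM with Twist at 5.71 and, in the labelled MCF10A arrays, 3.89.

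The factors were then compared directly in HMLE. Of the 9 members, 3 were higher with Snail than with Twist, BGN, DCN and OMD, and 3 were lower, LUM, PRELP and ASPN, whereas 14.3% of all genes were higher and 17.9% lower. BGN was higher with Snail by 1.47 ± 0.08 or 2.77-fold (adjusted p = 1.71e-10), DCN by 0.91 ± 0.06 (adjusted p = 6.91e-09) and OMD by 0.89 ± 0.13 (adjusted p = 2.83e-05). LUM was lower with Snail by a measured log2 difference of -3.91 ± 0.08, at least 14.4-fold (adjusted p = 1.68e-15), and PRELP by -0.89 ± 0.11 (adjusted p = 8.01e-06). Decorin and lumican, neighbours on the chromosome, thus differed between the factors in opposite directions. ASPN differed by -0.69 ± 0.20 (adjusted p = 0.012). That call was lost when only the groups compared were fitted (adjusted p = 0.0995), the difference was -0.34 without HMLE Twist replicate 1 (adjusted p = 0.0182), and it was -0.21 with array weights (adjusted p = 0.0473). OGN differed by 0.23 ± 0.09 (adjusted p = 0.0548), FMOD by 0.02 ± 0.11 (adjusted p = 0.924) and PODN by -0.05 ± 0.12 (adjusted p = 0.807). OGN passed without HMLE Snail replicate 2, MCF10A vector replicate 3 or labelled MCF10A Twist replicate 2, with adjusted p from 0.0201 to 0.0485, and with array weights (adjusted p = 0.0094).

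The change with Snail was larger in HMLE than in MCF10A for 3 members by the test of the difference of differences, which 19.9% of all genes passed in that direction. BGN changed by 4.92 ± 0.11 more (adjusted p = 3.86e-15), DCN by 3.63 ± 0.09 more (adjusted p = 1.18e-14) and LUM by 1.44 ± 0.11 more (adjusted p = 1.56e-08). The values for DCN and LUM rest in part on groups under the olfactory receptor percentile, HMLE vector for DCN and all 4 groups for LUM. For OMD, also under that percentile in all 4 groups, the difference between the lines was 0.14 ± 0.18. Its 95% interval ran from -0.24 to 0.52 (adjusted p = 0.605), so the OMD rises of 1.68 and 1.54 were not separated. ASPN differed by 0.54 ± 0.28 (adjusted p = 0.148), and passed without HMLE Twist replicate 1 (adjusted p = 0.0028), with array weights (adjusted p = 0.0337) and when only the groups compared were fitted (adjusted p = 0.00363). The remaining members differed by 0.06 to 0.27, with adjusted p from 0.156 to 0.836.

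The vector groups were compared as well. Of the 9 members, 3 were lower in HMLE vector than in MCF10A vector, where 20.6% of all genes were lower. DCN differed by -3.60 ± 0.06, at least 4.91-fold lower in HMLE (adjusted p = 1.08e-16), LUM by -0.41 ± 0.08 (adjusted p = 0.000343) and OMD by -0.41 ± 0.13 (adjusted p = 0.0132). OMD lost its call without HMLE vector replicate 1 (adjusted p = 0.0796). For BGN the difference was -0.15 ± 0.08 (adjusted p = 0.131), and the remaining 5 members differed by -0.15 to 0.01, with adjusted p from 0.204 to 0.976. DCN thus stood at 5.76 and 9.36 with vector and at 11.14 ± 0.06 and 11.11 ± 0.05 with Snail, whereas BGN stood at 8.57 and 8.72 with vector and at 13.60 ± 0.02 and 8.83 ± 0.06 with Snail.

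**Figure D3:**
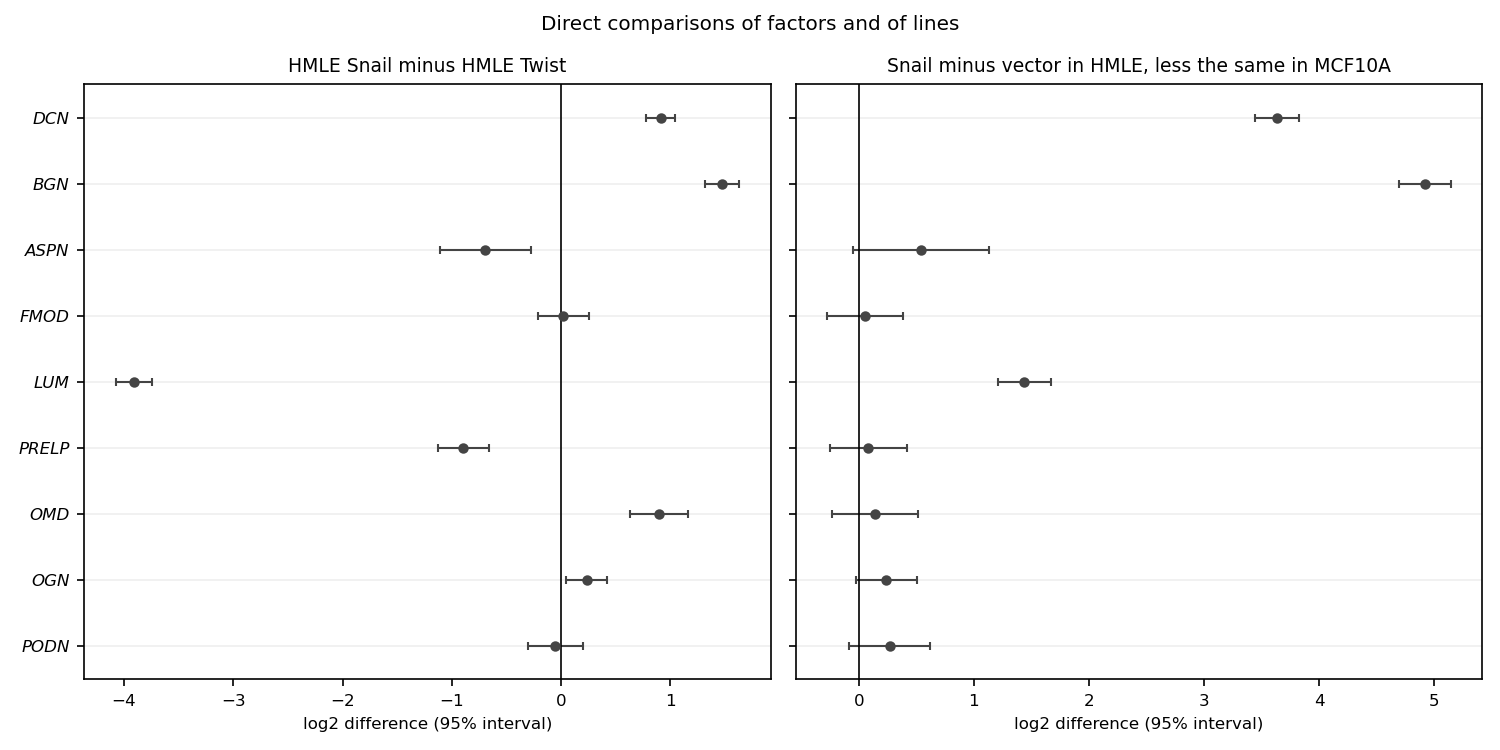
Log2 differences with 95% intervals from limma for the direct comparisons: HMLE Snail minus HMLE Twist (left), and the Snail minus vector difference of HMLE less that of MCF10A (right). On the left BGN is at 1.47, LUM at -3.91; on the right BGN is at 4.92, DCN at 3.63, LUM at 1.44 and OMD at 0.14.

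Most SLRP genes lie in clusters, and members of one cluster did not share one pattern. By gene order, EPYC, KERA, LUM and DCN follow one another on chromosome 12, OGN, OMD, ASPN and ECM2 on chromosome 9, and FMOD, PRELP and OPTC on chromosome 1. KERA (keratocan, of the cornea) lies beside LUM and had group means of 4.81 to 5.01, and EPYC (epiphycan, of cartilage) lies beyond it. Neither passed in any comparison with vector, while LUM and DCN each spanned over 5. OGN, at the edge of the chromosome 9 cluster, had a span of 0.23 beside 2.05 for OMD and 1.38 for ASPN. Over the 18 arrays, which fall in 6 groups, Pearson's r was 0.33 between DCN and LUM, 0.46 between DCN and BGN, 0.71 between BGN and LUM, 0.75 between DCN and OMD and 0.91 between LUM and PRELP.

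**Figure D4:**
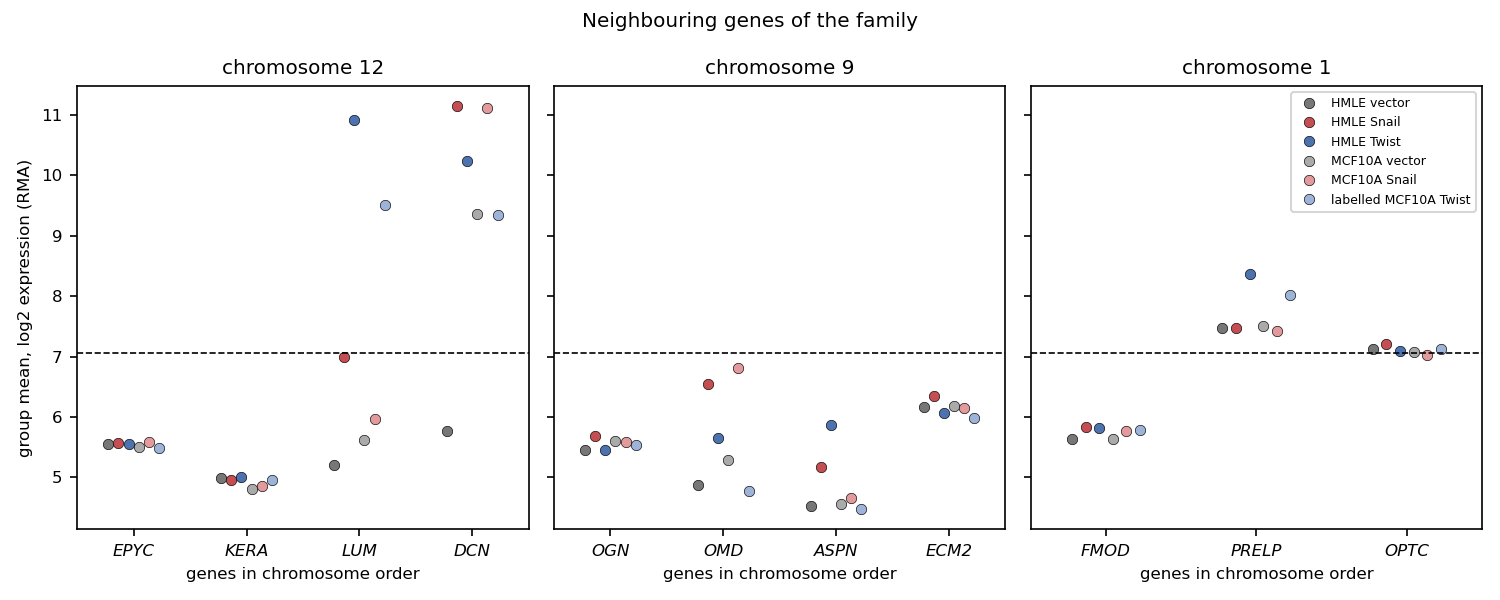
Group means of log2 expression for genes of the family that neighbour each other, in chromosome order, with a small sideways offset for each group. The dashed line is the olfactory receptor 95th percentile of 7.07. On chromosome 12 LUM and DCN spread over more than 5 units while KERA lies between 4.81 and 5.01.

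Of the other 9 genes of the wider family, 1 rose and 1 fell with each factor in HMLE. Of all genes, 22.9% rose and 24.8% fell with Snail in HMLE, and 23.0% rose and 20.7% fell with Twist. There, PODNL1 (podocan-like) rose by 1.33 ± 0.09 with Snail and 0.54 ± 0.09 with Twist, and TSKU (tsukushi, a secreted signalling modulator) fell by 0.42 and 0.61 on the log2 scale. With Snail in MCF10A, TSKU alone of the 9 passed and fell by 0.39, where 10.7% of all genes rose and 12.0% fell. In labelled MCF10A Twist against MCF10A vector PODNL1 rose by 0.38 ± 0.09 and TSKU fell by 0.65. Against HMLE vector the values were 0.55 ± 0.09 and -0.60 ± 0.05. Of all genes, 26.5% rose and 23.9% fell against MCF10A vector, and 25.2% rose and 24.0% fell against HMLE vector. ECM2, KERA, EPYC, OPTC, CHAD, CHADL and NYX passed in none of these 5 comparisons.

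Genes most like each wide-ranging member were taken by Pearson's r over the 18 arrays among the 1349 genes whose group means span at least 2. For BGN they were PCOLCE (0.989), CPEB2 (0.988), COL6A2 (0.987), CPQ (0.987) and RECK (0.986). For LUM they were ADAM33 (0.977), FMN2 (0.974), TMEM171 (0.968), RFX8 (0.952) and ITGA4 (0.949). DCN was most like NAP1L3 (0.975), ZBTB16 (0.97), LTBP1 (0.964), GNG11 (0.94) and TP53INP1 (0.924), and OMD most like IL1RL1 (0.904), ACKR1 (0.901), IGFBP3 (0.888), IKZF2 (0.886) and HSD11B1 (0.884). No gene appeared in 2 of these lists. COL6A2 is a chain of collagen VI, and PCOLCE is an enhancer of procollagen processing. These correlations are a description and carry no test, since the arrays of a group share their condition.

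Counts of the lists below are to be read against the shares of all genes that rose and fell. These were 22.9% and 24.8% with Snail in HMLE, 23.0% and 20.7% with Twist in HMLE, and 10.7% and 12.0% with Snail in MCF10A. For labelled MCF10A Twist they were 26.5% and 23.9% against MCF10A vector, and 25.2% and 24.0% against HMLE vector. Many collagen genes, whose products SLRPs bind, rose in HMLE. Of 13 collagen genes, 9 rose and none fell with Snail (median difference 1.56), and 8 rose and 1 fell with Twist (median 0.99), against median differences of all genes of -0.01 and 0.02. With Snail, COL1A2 rose by 4.60 ± 0.08, COL3A1 by 3.66 ± 0.10, COL1A1 by 3.41 ± 0.08 and COL6A1 by 3.17 ± 0.06. With Twist, COL3A1 rose by 3.40 ± 0.10 and COL1A1 by 3.04 ± 0.08, and COL6A3 fell by 0.55. In MCF10A with Snail, 5 rose, led by COL12A1 (1.57 ± 0.06) and COL6A3 (1.04 ± 0.07), and the median was 0.01. COL6A3 was under the olfactory receptor percentile of 7.07 in MCF10A vector, at 6.83, and narrowly in HMLE Twist, at 7.06. In labelled MCF10A Twist 8 rose against MCF10A vector, led by COL6A1 (3.47 ± 0.06) and COL3A1 (3.45 ± 0.10), with a median of 0.29. Against HMLE vector 7 rose and 3 fell in the same arrays, with COL6A1 higher by 3.40 ± 0.06 and COL3A1 by 3.39 ± 0.10.

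The enzymes that build chondroitin and dermatan sulfate chains changed in both directions. Of 22, 11 rose and 6 fell with Snail in HMLE, 10 rose and 5 fell with Twist in HMLE, 3 rose and 5 fell with Snail in MCF10A, and 9 rose and 9 fell in labelled MCF10A Twist against MCF10A vector. DSEL, a relative of the epimerase that turns chondroitin into dermatan sulfate, rose with Snail by 2.53 ± 0.08 in HMLE and 0.84 ± 0.08 in MCF10A, and with Twist in HMLE by 1.39 ± 0.08. In HMLE the chondroitin sulfotransferase CHST11 fell by 1.95 with Snail and 1.55 with Twist, and CHST15 by 1.70 and 0.95. In labelled MCF10A Twist, 8 rose and 7 fell against HMLE vector. XYLT1, which starts the chain, was higher there by 2.69 ± 0.12 against MCF10A vector and by 0.78 ± 0.12 against HMLE vector. Of 9 keratan sulfate enzymes, 2 rose and 3 fell with Snail in HMLE, and 3 rose and 3 fell with Twist. CHST2, a sulfotransferase, led both with rises of 1.98 ± 0.08 and 1.85 ± 0.08. In MCF10A 2 rose and 1 fell with Snail, and 3 rose and 2 fell in the labelled Twist arrays against MCF10A vector, and 2 of each against HMLE vector.

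Among 12 proteases and helpers that process SLRPs or procollagen, 6 rose and 2 fell with Snail in HMLE, and 5 rose and 5 fell with Twist. PCOLCE rose by 4.48 ± 0.07 and 3.78 ± 0.07, and the aggrecanase ADAMTS5 by 2.84 ± 0.12 and 1.67 ± 0.12. The HMLE vector mean of ADAMTS5, 5.90, was under the olfactory receptor percentile. TLL1, a proteinase of the group that cleaves the biglycan propeptide, fell by 2.80 and 3.64, to means under the olfactory receptor percentile. Of the same group, BMP1 had HMLE means of 10.11 with vector, 10.52 with Snail and 9.81 with Twist. Those of TLL2 were 7.25, 6.92 and 6.84. In MCF10A 4 rose and 2 fell with Snail, led by MMP2 (0.91 ± 0.06), and 4 rose and 3 fell in labelled MCF10A Twist against MCF10A vector, led by ADAMTS1 (4.76 ± 0.10) and PCOLCE (4.59 ± 0.07). Against HMLE vector 5 rose and 3 fell, with ADAMTS1 higher by 1.91 ± 0.10 and PCOLCE by 4.75 ± 0.07. The MCF10A vector mean of ADAMTS1, 6.38, was under the same percentile. Among 14 ligands and receptors of SLRPs, 7 rose and 4 fell with Snail in HMLE and 5 rose and 6 fell with Twist, while in MCF10A 4 rose and 2 fell with Snail and 4 of each moved in labelled MCF10A Twist against MCF10A vector. Against HMLE vector 4 rose and 7 fell in those arrays. TLR4, a receptor for biglycan, rose by 2.93 ± 0.10 with Snail and 1.30 ± 0.10 with Twist in HMLE, and by 1.57 ± 0.10 with Snail in MCF10A. In labelled MCF10A Twist its direction depended on the vector group. It was 1.90 ± 0.10 against MCF10A vector and -0.26 ± 0.10 against HMLE vector, and both passed. The MCF10A vector mean of TLR4, 6.80, was under the percentile as well. LRP1, an endocytic receptor for decorin, rose in HMLE by 2.84 ± 0.07 and 2.27 ± 0.07. Its mean was 11.04 in MCF10A vector, lower in MCF10A Snail at 10.58, and 11.12 in labelled MCF10A Twist. TLR2 fell by 2.26 with Twist in HMLE, to a mean of 6.47, under that percentile. ITGA2, a collagen receptor subunit, fell by 2.96 in labelled MCF10A Twist against MCF10A vector and differed by -3.23 against HMLE vector.

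**Figure D5:**
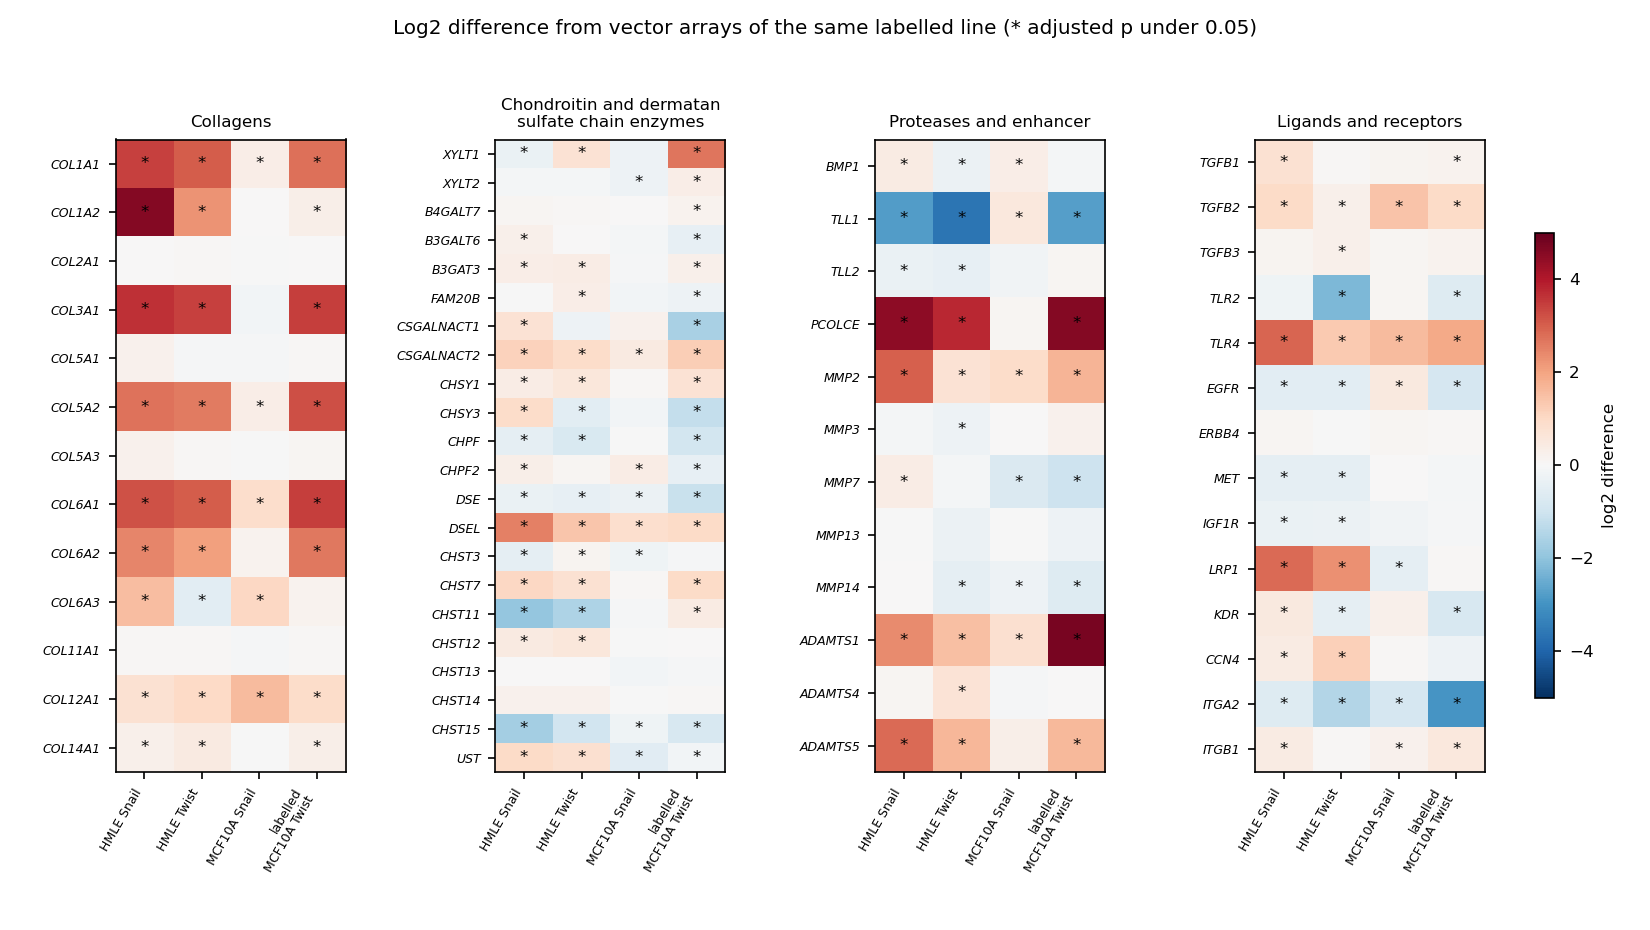
Log2 differences from the vector arrays of the same labelled line for collagens, chain enzymes, proteases and ligands or receptors, coloured from -5 to 5, with an asterisk at adjusted p under 0.05. COL1A2 at 4.60 and PCOLCE at 4.48 stand out with Snail in HMLE, and TLL1 at -3.64 with Twist in HMLE.

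Markers of other cell types moved beside the SLRPs. The mean log2 level of 14 fibroblast markers, which include 3 of the collagens above, ranged over arrays from 7.83 to 7.90 in HMLE vector, 9.98 to 9.99 in HMLE Snail, 9.68 to 9.71 in HMLE Twist, 7.57 to 7.65 in MCF10A vector, 7.70 to 7.81 in MCF10A Snail and 9.58 to 9.60 in labelled MCF10A Twist. Of the 14, 11 rose and 1 fell with Snail in HMLE, 10 rose and 1 fell with Twist, 3 rose with Snail in MCF10A, and 11 rose and 1 fell in labelled MCF10A Twist against MCF10A vector, where 9 rose and 2 fell against HMLE vector. The mean of 7 mammary epithelial markers was 12.54 to 12.59 in HMLE vector, 8.34 to 8.35 in HMLE Snail, 7.63 to 7.83 in HMLE Twist, 11.70 to 11.74 in MCF10A vector, 11.27 to 11.34 in MCF10A Snail and 7.86 to 7.95 in labelled MCF10A Twist. EPCAM and CDH1, defining epithelial genes, were at 5.77 and 6.62 in HMLE Snail, 5.55 and 6.62 in HMLE Twist and 5.91 and 6.85 in labelled MCF10A Twist, within the range of olfactory receptor genes. The keratins, 4 of the 7 markers, stayed above the olfactory receptor percentile in each of these groups. KRT8 and KRT18 were at 10.67 and 10.30 in HMLE Snail, 9.32 and 9.92 in HMLE Twist and 9.85 and 10.20 in labelled MCF10A Twist. Of 8 smooth muscle and pericyte markers, 6, 4, 3 and 4 rose in the comparisons with vector (in the order HMLE Snail, HMLE Twist, MCF10A Snail, labelled MCF10A Twist) and 0, 2, 0 and 1 fell, with array means of 7.94 to 8.09 in HMLE vector and 9.31 to 9.38 in HMLE Snail. Of 10 endothelial markers, 2 rose and 1 fell with Snail in HMLE. None rose in the other 3 comparisons, and falls there are not counted here. PECAM1 was at 7.88 in MCF10A vector, 7.01 in MCF10A Snail and 6.94 in labelled MCF10A Twist. Array means of the endothelial list lay between 6.62 and 6.90 in all groups. Of 9 leukocyte markers 2 or 3 rose and 1 or 2 fell in each of the 4, with the defining marker PTPRC at group means of 4.59 to 5.23. Not all of the 9 were dim, since 3 or 4 lay above the olfactory receptor percentile in each group. CD68 had group means of 10.33 to 12.52, and CD14 stood at 11.67 in MCF10A vector, 9.87 in MCF10A Snail and 8.46 in labelled MCF10A Twist. Of 7 cartilage and bone markers 1 rose and 1 or 2 fell in each. In labelled MCF10A Twist against HMLE vector, 3 smooth muscle and pericyte markers rose and 1 fell, 2 endothelial markers fell, 2 leukocyte markers rose and 1 fell, 1 cartilage and bone marker rose and 1 fell, and all 7 epithelial markers fell. The part of these shifts in the SLRP results was not tested.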

How the data were processed

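Biotin-labelled total RNA of 18 samples was measured on 1-colour Affymetrix arrays of the Human Gene 1.0 ST design. For 33297 probe sets the authors deposited log2 values made with RMA, per the submitters' processing notes. RMA corrects background, applies quantile normalization and then summarises the probes of a set. The version of RMA is not given in the sources used here, nor is a genome build. Groups and replicate numbers came from the sample titles. Symbols came from the platform annotation (19460 probe sets with 1 symbol, 1754 with several, 12083 with none), updated by gene ID for 19429. The probe set with the highest mean stood for each of 769 genes with several, which left 18417 genes.

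Differences were tested with limma 3.58.1 in R 4.3.3 on the values as deposited, with 1 mean for each of the 6 groups, all arrays in the fit and 12 residual degrees of freedom, and p-values were adjusted by Benjamini-Hochberg over all 18417 genes. A gene rose or fell at adjusted p under 0.05, and 2-fold counts also needed an absolute log2 difference of 1. The 8 comparisons were each factor against vector, the factors in HMLE, the change with Snail between the lines, the vector groups, and labelled MCF10A Twist against HMLE vector. The 15 lists, the members among them (153 of their 158 entries were measured), were chosen with earlier results of these data known. Named genes were all members, the check genes, the neighbours, up to 4 called genes per list and comparison with the largest change plus a sole member that moved against its list, and the 5 most similar genes per wide-ranging member. EPCAM, CDH1 and PTPRC are named as defining markers, PTPRC after its values were seen. CD68, CD14, PECAM1, GRHL2, BMP1, TLL2 and the keratins were also named after their values were seen. Of the check genes, CDH2, VIM and ZEB1 were tested but are not shown. Alternatives covered normalization, centring, array weights, variance priors, probe set choice, a filter on dim genes, the groups in the fit, the replicate number as a block, thresholds and each array left out. The fit without the arrays labelled MCF10A Twist was added after the data were seen. Deviations from group means were compared by replicate number, and in no compared pair of groups were all 3 correlations over 0.1, so the numbers were not taken to pair arrays. No batch or scan date was found in the labels or the deposited table, and no pair of columns was identical. The fit was tested on simulated data. Figures were drawn with matplotlib 3.10.9.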

Additional observations from a re-analysis of the deposited data

Results flagged for a closer look

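The change with Snail differed between HMLE and MCF10A for 3 members by the test of the difference of differences in limma (3 arrays in each group). DCN was 3.63 higher on the log2 scale in HMLE (adjusted p = 1.18e-14), BGN 4.92 higher (adjusted p = 3.86e-15) and LUM 1.44 higher (adjusted p = 1.56e-08). Of all genes, 19.9% passed the same test in that direction. The vector groups of the lines also differed in DCN by -3.60 and in LUM by -0.41 (HMLE minus MCF10A), and in BGN by -0.15 without passing. The HMLE vector mean of DCN, and the means of LUM in all 4 groups, were under the olfactory receptor 95th percentile of 7.07. The epithelial markers stood at 8.34 to 8.35 in HMLE Snail and 11.27 to 11.34 in MCF10A Snail, and their part in these differences was not tested.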

How the results depend on the processing

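Over all alternatives, 2110 values of a member in a comparison were recomputed. Of these, 2061 kept their side of the threshold, 30 lost their call and 19 gained one. No value that passed in either fit changed direction. Values that passed in neither could change sign, as for PRELP with Snail in HMLE, which ranged from -0.111 to 0.095. Shares of all genes under each setting are not given here, so the counts that follow describe the members alone. The count of members called moved by over 1.5 times in 4 cases. With a filter on dim genes it was 3 instead of 6 for HMLE Snail against vector, because ASPN, OMD and OGN were not tested. With the 2-fold limit it was 2 instead of 4 for labelled MCF10A Twist against MCF10A vector, 2 instead of 6 for HMLE Snail against Twist, and 1 instead of 3 between the vector groups. With each array left out in turn, the counts ranged from 4 to 6 for HMLE Snail against vector, 6 to 8 for HMLE Twist against vector, 3 to 3 for MCF10A Snail, 4 to 4 for labelled MCF10A Twist against MCF10A vector, 6 to 7 for Snail against Twist, 3 to 4 for the change with Snail between lines, 2 to 3 between the vector groups and 4 to 5 for labelled MCF10A Twist against HMLE vector. The low ends of 4 for HMLE Snail and 2 between the vector groups came without HMLE vector replicate 1, and the 8 for HMLE Twist came without HMLE Twist replicate 1. With the replicate number as a block, 7 members instead of 6 passed between Snail and Twist in HMLE, the added one being OGN (adjusted p = 0.0474), and the other counts were equal. The estimate of the array weights stopped before its convergence tolerance was reached. ASPN, FMOD, OMD and OGN, DCN in HMLE vector, and LUM in the vector and Snail groups lie at the dim end, where signal over background limits what can be shown.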
